A study of Homo sapiens with 8 samples.

Results

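The 71 genes described here are those whose transcript level in HepG2 cells stood above the solvent control after 24 h of benzo[a]pyrene (BaP) but not, or barely, after 12 h. They were chosen from 19002 genes by their measured values. A gene was taken if the mean of the BaP arrays exceeded that of the dimethyl sulfoxide (DMSO) arrays by at least 0.5 on the log2 scale at 24 h, if the same difference was at most 0.2 at 12 h, if the BaP mean at 24 h was at least 5.5, and if both BaP arrays at 24 h lay above both DMSO arrays. All values are log2 signals of 1 probe set per gene, so a difference of 1 is a 2-fold change. Because these differences chose the genes, their sizes at both times are a description and not a test.

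HepG2 is an established human cell line from a hepatocellular carcinoma. Monolayer cultures received BaP or its solvent in fresh medium. Each treatment lasted 12 h or 24 h, and each of the resulting 4 groups has 2 arrays. The labels give the solvent as 0.5% DMSO and state no dose of BaP. The arrays of a group are called biological replicates in the titles; whether they came from separate cultures is not stated further, so errors measure the spread between these arrays.

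BaP is a polycyclic aromatic hydrocarbon formed in incomplete combustion. As background, it binds the aryl hydrocarbon receptor, a ligand-activated transcription factor that induces the cytochromes P450 of family 1. These enzymes oxidise BaP to reactive diol epoxides that bind DNA, and the resulting bulky adducts stall transcription and replication and can activate p53 and other damage responses. Receptor targets can respond directly to the ligand, whereas responses to adducts need metabolism first, so transcripts that differ only at a late time are a usual object of a 2-time design such as this one.

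The deposited tables give genes by Ensembl identifier alone, and the gene table used here pairs 0 of the 19002 identifiers with a symbol. No gene is therefore named, no role is given to a member, and no promoter sequence could be joined to one. The 19 role lists and the hepatocyte and other cell type markers drawn up by symbol were not applied. Of the members, 4 are given by identifier and the others by their rank from 1 to 71 in the 24 h difference. The array medians lay between 6.64 and 6.68. Signal from 18S ribosomal RNA, averaged over its probe sets, reached 12.6 to 13.1 on 7 arrays and 11.3 on the remaining one, DMSO 24 h replicate 2. That array therefore stands apart. The members' 24 h differences, changes in DMSO and courses are also given without it. The averaged pattern, the choice on 1 replicate and the comparison with genes that differed at both times are not.

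The members were moderately to strongly expressed. Their BaP means at 24 h ranged from 6.53 to 11.70, with a median of 8.79 and quartiles of 7.82 and 9.58. The lowest single value of any member on any array was 5.66, above the 4.35 reached by the control probe sets for a Bacillus subtilis tryptophan synthesis transcript. Of 3 equal classes of all genes by mean level over the 8 arrays, the lowest held 0 members, the middle 26 and the highest 45. The choice used a minimum level, so an absence of dim genes was built in. That minimum itself did little: without it 74 genes met the rule, and with a minimum of 6.5 the same 71 did.

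At 24 h the differences were modest. BaP minus DMSO ranged from 0.50 to 0.93, which is 1.42-fold to 1.90-fold, with a median of 0.58 and quartiles of 0.54 and 0.67. No member reached a 2-fold difference. In 39 members the difference was under 0.6, and in 16 it was at least 0.7. The lower BaP array exceeded the higher DMSO array by 0.12 to 0.85, with a median of 0.43, and by under 0.2 in 5 members. The members nearest the limit had differences of 0.501, 0.502 and 0.506, and the nearest genes outside that met the other criteria had 0.495, 0.493 and 0.486, so no gap in the values marks the lower edge of the set.

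**Figure D1:**
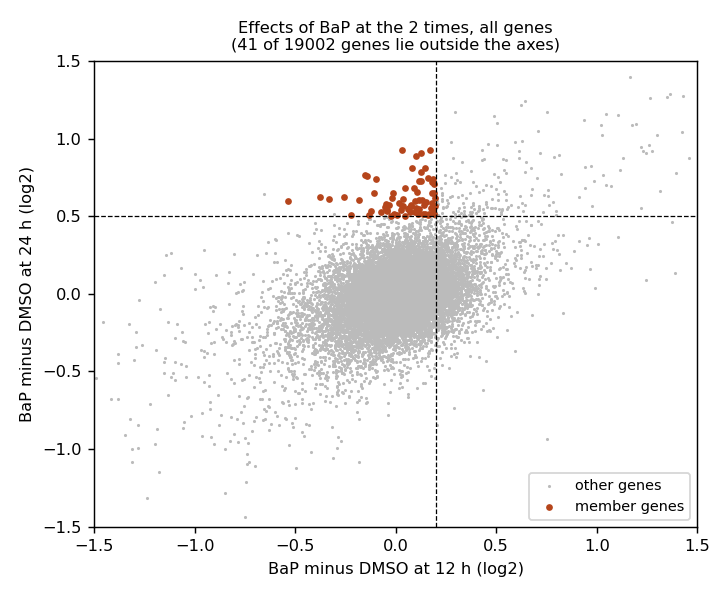
BaP minus DMSO at 12 h (horizontal axis, log2) against the same difference at 24 h (vertical axis, log2) for all 19002 genes, with the 71 members in red and the limits of 0.2 and 0.5 as dashed lines; 41 genes lie outside the axes. The members fill the corner above 0.5 and left of 0.2, and 39 of them lie under 0.6 on the vertical axis.

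At 12 h the same difference ranged from -0.54 to 0.20 over the members, with a median of 0.08, against 0.02 over all genes. It was above 0 in 49 members and below 0 in 22. In 29 members it lay within 0.1 of 0, in 31 between 0.1 and 0.2, and in 11 below -0.1. The members next to the 12 h limit had 0.19, 0.19 and 0.20, and the genes just beyond it had 0.20, 0.20 and 0.21. The arrays of BaP and DMSO at 12 h overlapped in 45 members. Both BaP arrays lay above both DMSO arrays in 18 of 71 members, a pattern found in 30.7% of all genes, and below them in 8, against 23.4% of all genes. Both shares were below those of all genes. The rule limited the 12 h difference to 0.2, which bears on the first share. The members' median spread within groups was also larger than that of all genes (SD 0.12 against 0.08). Nothing is read from either share.

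ENSG00000105928 had the largest 24 h difference. Its values were 10.26 and 10.30 in DMSO at 12 h, 10.51 and 10.39 in BaP at 12 h, 10.21 and 10.13 in DMSO at 24 h, and 11.13 and 11.06 in BaP at 24 h. Both BaP arrays at 24 h stood above all other arrays, and the BaP arrays at 12 h lay slightly above the 4 DMSO arrays. The log2 difference was 0.17 ± 0.07 (limma's moderated SE, 2 arrays per group) at 12 h and 0.93 ± 0.07 at 24 h, a 1.90-fold higher level.

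ENSG00000131016 came next with almost the same 24 h difference. It read 8.32 and 8.21 in DMSO at 12 h, 8.29 and 8.31 in BaP at 12 h, 8.25 and 8.52 in DMSO at 24 h, and 9.28 and 9.34 in BaP at 24 h. The BaP arrays at 12 h lay within the range of the DMSO arrays of that time, and DMSO 24 h replicate 2 was the highest of the 4 DMSO arrays. Its difference was 0.03 ± 0.09 (SE) at 12 h and 0.93 ± 0.09 at 24 h. From 12 h to 24 h it rose by 1.01 ± 0.09 in BaP, with an adjusted p of 3.75e-04 in limma. The rule used these BaP arrays, so that p-value is a description and not a test.

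ENSG00000196562, ranked 28, crossed from lower to higher. Its values were 9.20 and 9.26 in DMSO at 12 h, 8.90 and 8.89 in BaP at 12 h, 8.99 and 8.98 in DMSO at 24 h, and 9.61 and 9.57 in BaP at 24 h. BaP lay below DMSO at 12 h and above it at 24 h, with no overlap at either time and little spread within any group. The difference was -0.33 ± 0.06 (SE) at 12 h and 0.61 ± 0.06 at 24 h. It was the only member that passed the test as lower in BaP at 12 h (limma, adjusted p = 0.0152), a call made for 4.87% of all genes. Without any 1 of the 4 arrays of 12 h that adjusted p was between 0.0563 and 0.108, and in a scaling of each array to its poly-A controls, described below, the 12 h difference was 0.12 in place of -0.33.

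ENSG00000249592, ranked 33, had the lowest 12 h difference of all members but a wide spread. It read 6.77 and 6.22 in DMSO at 12 h, 6.18 and 5.74 in BaP at 12 h, 6.34 and 5.82 in DMSO at 24 h, and 6.76 and 6.59 in BaP at 24 h. Replicate 1 was above replicate 2 in all 4 groups, by 0.16 to 0.55 on the log2 scale. The difference was -0.54 ± 0.22 (SE) at 12 h and 0.60 ± 0.22 at 24 h, and neither passed the test in limma (adjusted p = 0.199 at 12 h and 0.168 at 24 h). Omitting replicate 1 of DMSO at 12 h gave a 12 h difference of -0.26 and omitting its partner -0.81, while omitting replicate 2 of BaP at 12 h gave -0.32. Omitting replicate 1 of DMSO at 24 h gave a 24 h difference of 0.86 and omitting its partner 0.34.

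**Figure D2:**
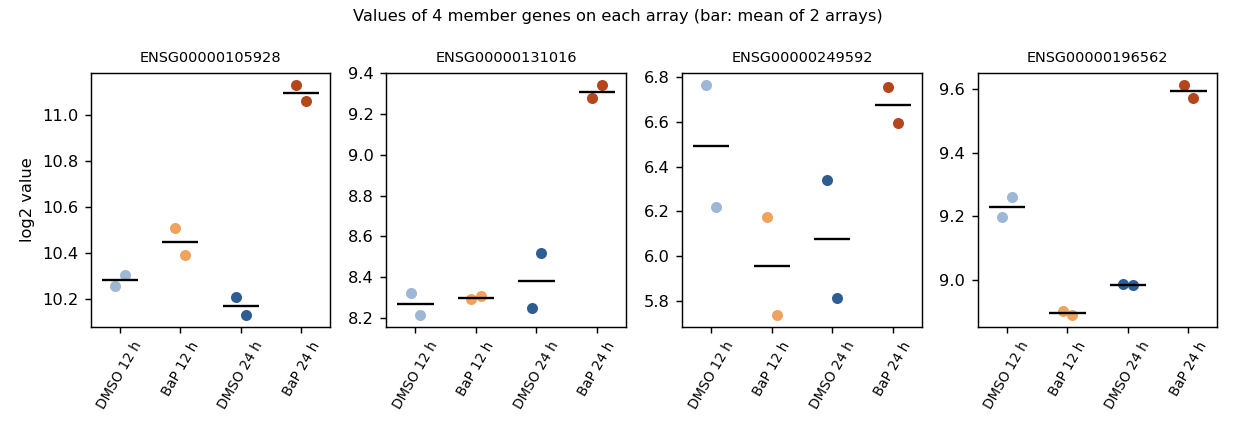
Log2 values (vertical axes, each with its own range) of the 4 members given by identifier on the 8 arrays, in the order DMSO 12 h, BaP 12 h, DMSO 24 h and BaP 24 h; points are arrays and bars are means of 2. The BaP arrays at 24 h are the highest in ENSG00000105928, ENSG00000131016 and ENSG00000196562, while in ENSG00000249592 a DMSO array at 12 h reaches 6.77, above both BaP arrays at 24 h.

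A difference that opens between 12 h and 24 h can come from a higher level in BaP, from a lower level in DMSO, or from both, so each arm was followed over time. In BaP, 67 of 71 members had a higher mean at 24 h than at 12 h, with a median change of 0.54 and quartiles of 0.29 and 0.71. Over all genes 41.2% were higher at 24 h, and the median was -0.03. In DMSO, 41 members were lower at 24 h, with a median change of -0.06, a range from -0.87 to 0.53 and quartiles of -0.25 and 0.11; over all genes 55.6% were lower and the median was -0.02. Without DMSO 24 h replicate 2 the members' median change in DMSO was -0.01, with 37 below 0, and without replicate 1 it was -0.12. The change in BaP was the larger in size in 57 members and the change in DMSO in 14. The rule favours a high BaP level at 24 h and a low DMSO level at 24 h, so these directions follow in part from the choice.

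The members were sorted into 5 courses with a limit of 0.2, set after the values were seen: an arm is called up or down where its mean at 24 h was at least 0.2 above or below that at 12 h, without a test. The most frequent course, in 38 members, was BaP up with DMSO within the limit, with median changes of 0.59 in BaP and -0.002 in DMSO. In 12 members BaP was up and DMSO down, with medians of 0.35 and -0.25. In 11 members both arms were up, with medians of 0.85 in BaP and 0.35 in DMSO. In 9 members BaP stayed within the limit, with a median of 0.04, while DMSO was down, with a median change of -0.46. In 1 member, ranked 13, both arms were down. For the last 10 members a late rise does not describe the BaP arm: their level under BaP at 24 h was within 0.2 of that at 12 h or lower, while the DMSO level was lower at 24 h. These directions are relative to the other genes of an array, and after scaling to the poly-A controls, described below, 69 of 71 members were higher in DMSO at 24 h than at 12 h.

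**Figure D3:**
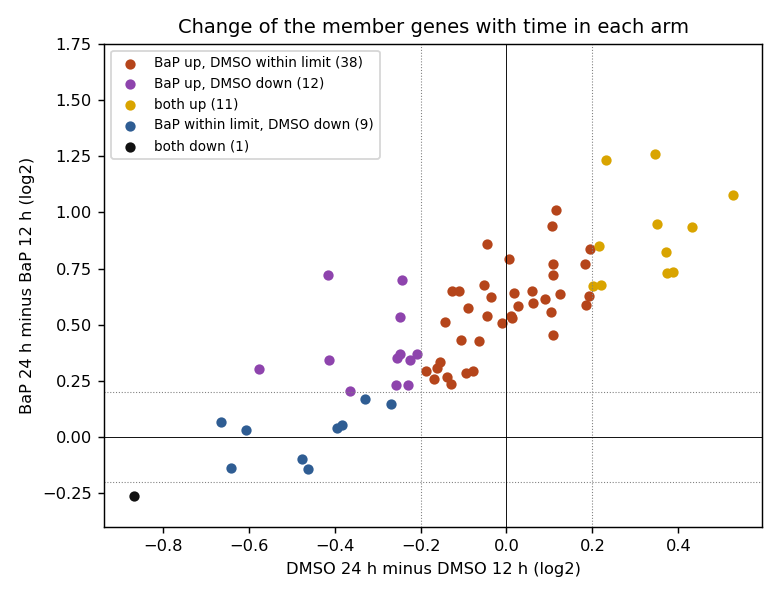
Change from 12 h to 24 h in DMSO (horizontal axis, log2) against the change in BaP (vertical axis, log2) for the 71 members, coloured by course, with dotted lines at the limit of 0.2 on either side of 0. The largest group, 38 members in red, lies above the upper dotted line and between the vertical ones, and 10 members in blue and black lie at the lower left, where DMSO was down and BaP was not up.

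Members of each kind show how different the courses were. The member ranked 8 had the largest rise in BaP. It read 10.60 and 10.57 in DMSO at 12 h, 10.49 and 10.38 in BaP at 12 h, 10.91 and 10.96 in DMSO at 24 h, and 11.83 and 11.56 in BaP at 24 h. Both arms were higher at 24 h without overlap, by 1.26 ± 0.09 (SE) in BaP and 0.35 ± 0.09 in DMSO, the latter not past the threshold in limma (adjusted p = 0.0647).

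The member ranked 13 went the other way. It read 10.17 and 10.08 in DMSO at 12 h, 10.39 and 10.11 in BaP at 12 h, 9.36 and 9.15 in DMSO at 24 h, and 10.04 and 9.94 in BaP at 24 h. The 2 DMSO arrays at 24 h were the lowest of all 8, and both BaP arrays at 24 h lay below those at 12 h. The change with time was -0.87 ± 0.11 (SE) in DMSO (limma, adjusted p = 0.0064) and -0.26 ± 0.11 in BaP (adjusted p = 0.160).

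The member ranked 26 shows a DMSO change that rested mostly on 1 array. It read 9.74 and 9.64 in DMSO at 12 h, 9.63 and 9.72 in BaP at 12 h, 9.42 and 8.75 in DMSO at 24 h, and 9.76 and 9.65 in BaP at 24 h. The first 4 and the last 2 of these values lay close together, DMSO 24 h replicate 1 was somewhat below them and replicate 2 far below. The change in DMSO was -0.61 ± 0.18 (SE) and did not pass in limma (adjusted p = 0.0785).

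Averaged over the 71 members after centring each gene on its mean over the 8 arrays, the values were -0.09 and -0.16 in DMSO at 12 h, -0.06 and -0.12 in BaP at 12 h, -0.13 and -0.27 in DMSO at 24 h, and 0.45 and 0.39 in BaP at 24 h. The 2 BaP arrays at 24 h stood apart from the other 6, and DMSO 24 h replicate 2 was the lowest. The correlation of a member with this mean over the 8 arrays, to which each member contributes, had a median of 0.86 and a range from 0.24 to 0.98. It was above 0.9 in 27 members and below 0.7 in 10. Of the genes outside the set, the 5 with the most similar pattern had correlations between 0.96 and 0.98 over the 8 arrays. Their 24 h differences were 0.15 to 0.35, below the minimum of 0.5, so the same shape occurred at smaller size outside the set.

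**Figure D4:**
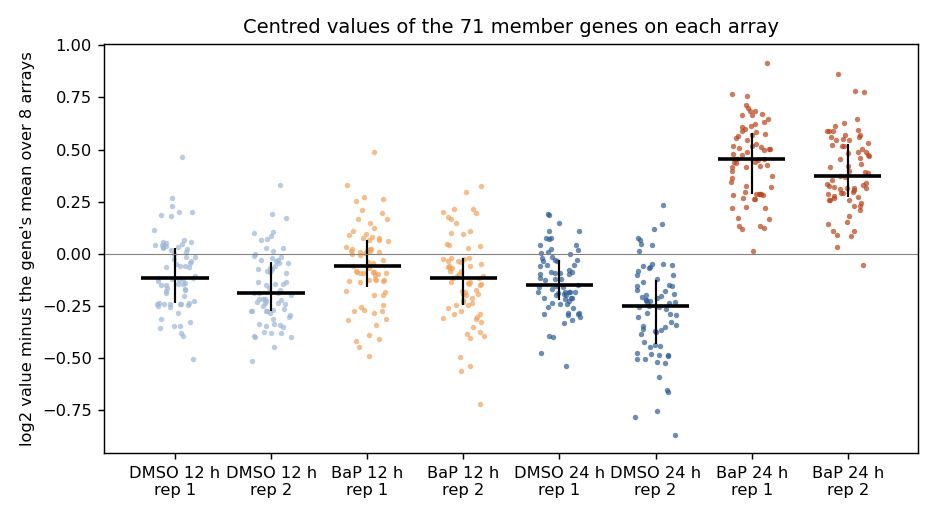
Log2 value of each of the 71 members minus its mean over the 8 arrays (vertical axis) on each array (horizontal axis); points are genes, horizontal bars are medians and vertical lines span the quartiles. The medians of the BaP arrays at 24 h are 0.45 and 0.38, the other 6 lie between -0.25 and -0.06, and DMSO 24 h replicate 2 has the lowest median and a wide spread.

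The members were also read with and without DMSO 24 h replicate 2. It lay below its partner in 58 of 71 members (81.7%), against 54.3% of all genes. Replicate 2 was the lower one in most members of the other groups too, in 69% against 44.7% of all genes in DMSO at 12 h, 64.8% against 49.2% in BaP at 12 h and 63.4% against 43.2% in BaP at 24 h. In DMSO at 24 h it was lower by more than 0.5 in 7 members, with the largest gap at 0.66. The median absolute gap between the DMSO arrays at 24 h was 0.17 over the members and 0.10 over all genes; in BaP at 24 h it was 0.10 and 0.09. With replicate 1 as the only DMSO array at 24 h, the median 24 h difference was 0.50 in place of 0.58, the lowest was 0.20, and 36 of 71 members still reached 0.5. With replicate 2 as the only one, the median was 0.67 and 64 members reached it. The course with BaP up and DMSO within the limit held 34 members without replicate 2 and 29 without replicate 1, in place of 38. Of the 38, 29 kept it without replicate 2 and 26 without replicate 1. The course with BaP up and DMSO down held 9 members without replicate 2 and 20 without replicate 1, in place of 12. Of the 12, 7 kept it without replicate 2 and all 12 without replicate 1. The course with both arms up held 18 without replicate 2. Of the 9 members with DMSO down alone, 8 kept that course without replicate 2 and all 9 without replicate 1, and the member ranked 13 kept its course in both settings. Whether the low 18S signal of that array has a part in these values was not tested.

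Counts of members past the test on all 8 arrays are given against the whole array. For them limma was fitted to all genes with Benjamini-Hochberg adjustment. Fits that omit an array leave 1 array in a group, and the counts they gave are printed only as ranges, in the last section. At 24 h, 56 of 71 members were higher in BaP at an adjusted p under 0.05, where 2.97% of all genes were higher and 3.09% lower. In limma 0 members were lower, and 0 at an unadjusted p under 0.05. The rule used this contrast and the count says nothing further about the members. The 15 members that did not pass had a median difference of 0.57, close to the 0.59 of those that did, but a larger median spread within groups (SD 0.21 against 0.11). Leaving out BaP 24 h replicate 1 gave a count of 33, leaving out its partner 25, and leaving out DMSO 24 h replicate 2 gave 27. The remaining 5 arrays, each omitted in turn, gave 52 to 58. The authors' deposited table lists 55 of them with a false discovery rate under 0.05.

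At 12 h, 0 members passed as higher in limma, where 3.39% of all genes did, and 6 of 71 were higher at an unadjusted p under 0.05, against 11.5% of all genes. The difference between the effects at the 2 times is built from both contrasts of the rule. It passed as higher at 24 h for 6 members, against 0.51% of all genes with a higher and 0.132% with a lower effect; 0 members were lower in limma, also at an unadjusted p under 0.05, and 64 were higher at one, against 7.05% of all genes. The 6 were the members ranked 1, 2, 3, 8, 28 and 40, with differences of effect from 0.61 to 0.94. The number changed when any 1 array was left out, and so did the share called over all genes. The count was 13 with the replicate number as a block, 18 with genes limited to a mean of at least 5.5 and 19 with a trended prior, where 0.637%, 1.52% and 1.21% of the genes tested were called higher. The rule used both differences, and nothing is read from these counts.

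For the change with time in BaP, 43 members passed as higher at 24 h, where 7.21% of all genes did. None passed as lower in limma, where 8.14% of all genes did. At an unadjusted p under 0.05 in limma, 53 members were higher, against 12% of all genes, and 1 was lower, against 15.8%. In DMSO, 4 members passed as higher at 24 h, against 3.13% of all genes, and 4 as lower, against 3.72%. In limma fits that omitted replicate 2 of DMSO at 12 h or at 24 h, 0 of these 8 calls were made, while 21 and 23 members had an unadjusted p under 0.05. Omitting DMSO 12 h replicate 1 gave 3 calls, and omitting DMSO 24 h replicate 1 gave 12. Of the 4 called lower, 3 were among the 9 members with DMSO down alone and 1 was the member ranked 13. These comparisons use arrays that the rule used.

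A limited check read newly chosen genes on arrays that took no part in choosing them. It concerns the rule and not the 71 members, which were chosen on all 8 arrays. The rule was applied to the 4 arrays of replicate 1 alone, and the chosen genes were read in the 4 arrays of replicate 2. This chose 69 genes, of which 34 are members. The median 24 h difference of the 69 was 0.56 in the choosing arrays and 0.48 in the other ones. In the latter, 63 of 69 were above 0 (91.3%) and 30 reached 0.5 (43.5%), against 54.1% and 2.57% of the 12709 genes at the same minimum level. Both limits, at least 0.5 at 24 h and at most 0.2 at 12 h, were met by 23 genes (33.3%), against 1.12%.

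In the reverse direction, replicate 2 alone chose 154 genes, of which 55 are members. The median 24 h difference of the 154 was 0.59 in the choosing arrays and 0.34 in replicate 1. In replicate 1, 129 were above 0 (83.8%), 40 reached 0.5 and 23 met both limits (14.9%), against 48.4%, 2.11% and 0.522% of 12827 genes. In both directions most chosen genes were above 0 at 24 h in the arrays not used. The size was smaller there, and most genes fell short of the limit. Members among the chosen genes are above 0 in both replicates by the rule on all 8 arrays. The median 12 h difference in the arrays not used was 0.07 for the first choice and 0.05 for the second. All 8 arrays were normalized together, and no p-value was computed for these shares. BaP and DMSO arrays were matched by replicate number, and whether that number pairs them is not settled. DMSO 24 h replicate 2 was the only 24 h control on 1 side of both directions, so neither has a version without it.

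**Figure D5:**
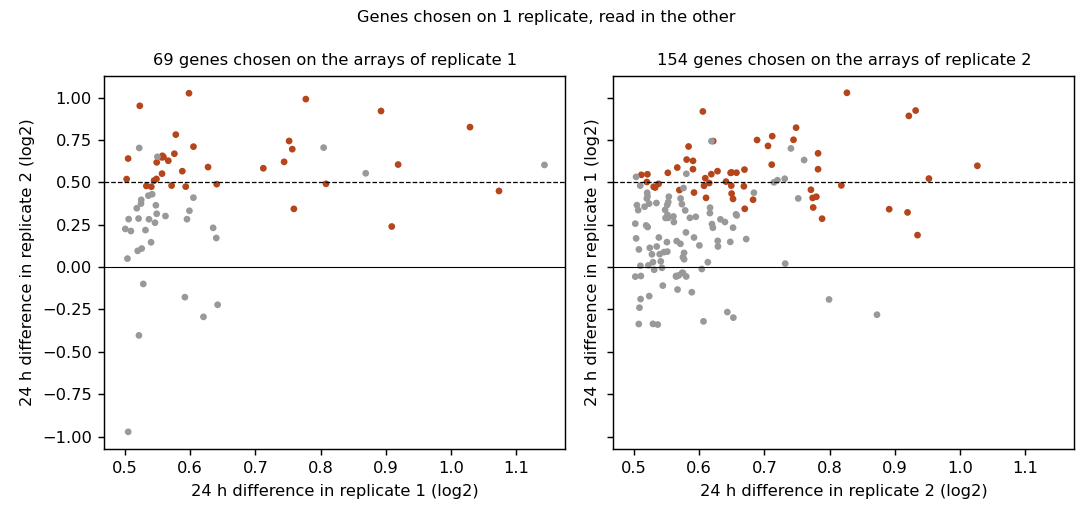
The 24 h difference (log2) in the arrays used for the choice (horizontal axes) against that in the arrays not used (vertical axes), for 69 genes chosen on replicate 1 (left) and 154 chosen on replicate 2 (right); red points are among the 71 members and the dashed line marks 0.5. Most points lie above 0, 63 of 69 on the left and 129 of 154 on the right, and 30 and 40 of them reach the dashed line. All red points lie above 0 because the members were chosen on both replicates.

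The members were set beside the 184 genes that met the same criteria at 24 h but had a 12 h difference above 0.2. Those had a median difference of 0.67 at 24 h and 0.52 at 12 h, and 32 of them reached 2-fold at 24 h. In BaP their change with time went both ways, with a median of 0.08, quartiles of -0.21 and 0.34, a range from -1.80 to 1.69 and 106 of 184 above 0. Of these genes, 34 had BaP up with DMSO within the limit, 31 were up in both arms and 29 down in both. In all, 35 of them had BaP up with DMSO within the limit or down, against 50 of the 71 members. In DMSO the medians of both sets were alike, at -0.06. These genes were separated from the members by the 12 h difference, which fixes part of the contrast in the BaP arm, and no test was made.

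All these values are relative to the other genes on the array. The deposited normalization gives arrays equal distributions before the probes of a set are combined. After each array was scaled to its 24 poly-A control probe sets instead, a choice made after the data were seen, the median of all genes moved to -0.11 for BaP against DMSO at 24 h, to 0.47 at 12 h and to 0.63 for DMSO at 24 h against 12 h. On that scale all 71 members were higher in BaP at 24 h, with a median of 0.47 in place of 0.58. That all 71 were higher was fixed by the rule and is no check on it. Members started at 0.5 or more, and the median of all genes only went from 0.01 to -0.11. In limma 0 of them passed, where 0.174% of all genes were higher. At an unadjusted p under 0.05, 35 members were higher, against 0.863% of all genes. The rule used the same arrays, and nothing is read from that count. The median at 12 h was 0.53, the 24 h effect minus the 12 h effect was above 0 in 33 members and below 0 in 38, with a median of -0.02, only 2 genes met the rule, and 69 members were higher in DMSO at 24 h than at 12 h. The members' change in BaP from 12 h to 24 h had a median of 0.62 on that scale and 0.54 on the deposited one. The scaling moves every gene of an array alike, so distances between the members and the median of all genes stay as they were.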

How the data were processed

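Labelled RNA (250 ng per sample) from 8 HepG2 samples was hybridised to Affymetrix arrays, following the labels' protocols. The authors' deposited expression values are on a log2 scale. Per the submitters' processing notes the tools were RMA and limma in R 2.12.2. In RMA, background is removed, arrays are given equal distributions, and the probes of a set are combined. How probes were assigned to genes is not stated in the labels or headers. The authors' deposited table adds log2 differences, signed fold changes, limma p-values and a log odds score per gene, per the file headers; its false discovery rates were set beside those computed here. Arrays carry no count depth, and 2 arrays per group limit the precision.

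After removal of 62 controls from 19064 probe sets, group means were fitted with limma 3.58.1 (R 4.3.3) to 19002 genes on 8 arrays, leaving 4 residual degrees of freedom. Benjamini-Hochberg adjustment ran over all genes in each comparison. The fit was tested on simulated data. The members and the lists were chosen with earlier results of these data known. The rule for genes to name took the leading members in the 24 h difference, in the difference of effects and in level, those lowest at 12 h, those in a role list and those next to the limits. As no symbols could be joined, 4 identifiers were printed, a choice made after the values were seen. Alternatives were a replicate block, omission of each array, cyclic loess, median centring, a filter on dim genes, trended or robust moderation, a stricter threshold, the authors' deposited table, the arrays of 1 time, other limits of the rule, each replicate alone and, added after the data were seen, poly-A scaling.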

Additional observations from a re-analysis of the deposited data

Results flagged for a closer look

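In limma's test of the 24 h effect minus the 12 h effect, 6 of the 71 members passed. For ENSG00000105928 the 24 h effect exceeded the 12 h effect by 0.76 (SE 0.10, adjusted p = 0.0203), for ENSG00000131016 by 0.90 (SE 0.13, adjusted p = 0.0302) and for ENSG00000196562 by 0.94 (SE 0.09, adjusted p = 0.00395). The rule asked for a large effect at 24 h and a small one at 12 h, so the direction follows from the choice. The p-values use the same values as the rule and are a description, not a test of these genes. With 1 array left out the difference of effects ran from 0.70 to 0.82 for ENSG00000105928. It ran from 0.76 to 1.03 for ENSG00000131016 and from 0.91 to 0.97 for ENSG00000196562. The first 2 genes did not pass in most of those fits. After poly-A scaling, which shifts every gene by the same amount, the 3 differences were 0.19, 0.33 and 0.37 and did not pass.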

How the results depend on the processing

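The rule gave 150 genes with a 24 h minimum of 0.4, 32 with 0.6, 40 with a 12 h limit of 0.1, 154 on replicate 2 alone and 2 after poly-A scaling; its other settings stayed within 1.5 times 71, and cyclic loess and median centring each kept 65 of the 71. With 1 array left out the number ranged from 54 to 124, highest without DMSO 24 h replicate 1. In the same fits 25 to 58 members were called at 24 h, 0 or 1 at 12 h, 1 to 7 for the difference of effects, 0 to 12 for DMSO over time and 33 to 46 for BaP over time. The share of all genes called changed in those fits too, so these ranges do not describe the members alone. With 1 array left out the members' median difference lay between 0.50 and 0.67 at 24 h and between 0.004 and 0.09 at 12 h. The replicate block gave 68 members higher at 24 h, against 3.51% of all genes, and 3 lower at 12 h, against 5.15%. It gave 13 higher for the difference, against 0.637%, and 15 in DMSO, where 3.37% of all genes were higher and 3.94% lower. ENSG00000249592 passed with the block at 12 h (limma, adjusted p = 0.0181) and 24 h (0.0163). Column names of the authors' deposited table carry the same pair of replicate suffixes in all groups, without an explanation, and the replicate numbers do not settle a pairing: across genes, the replicate gaps of BaP and DMSO at 24 h correlated at -0.05, and those of the other 5 pairs of groups at 0.10 to 0.14. A mean of at least 5.5 gave 18 for the difference, against 1.52% of the genes tested called higher. In DMSO it gave 16, against 6.57% higher and 8.3% lower. A trended prior gave 19 for the difference, against 1.21% higher, and 16 in DMSO, against 4.62% higher and 5.99% lower. At an adjusted p under 0.01 limma called 28 members at 24 h, where 0.963% of all genes were higher, and 0 at 12 h. It called 1 for the difference, against 0.158% higher, and 2 in DMSO, against 0.632% higher and 0.358% lower. At 12 h 9 members had an unadjusted p under 0.05, where 11.5% of all genes were higher and 10.7% lower. After poly-A scaling limma called 0 members at 24 h and 0 at 12 h, where 0.174% and 10.3% of all genes were higher, and 0 for the difference. At an unadjusted p under 0.05, 35 members were higher at 24 h, against 0.863% of all genes, and 48 at 12 h, against 51.5%. For the difference 0 members had such a p, while 0.116% of all genes were higher and 31.5% lower. In DMSO over time 46 members were called, where 83% of all genes were called higher, and 18 in BaP over time, against 1.58% of all genes. The members' median became 0.53 at 12 h, 0.58 in DMSO over time (-0.06 as deposited) and -0.02 for the difference of effects (0.55 as deposited). Of the members given by identifier, direction changed in 2: ENSG00000131016 had -0.0226 at 12 h without DMSO 12 h replicate 2 (up to 0.0867 with another array left out), and ENSG00000196562 had 0.12 at 12 h after poly-A scaling, which put the median of all genes at 0.47. The cause of these shifts was not tested, except that fewer arrays or genes enter some fits. Genes near background could not be members, and signals of 2 arrays per group set the precision.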
